A study of Zea mays with 4 samples.

Results

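Transcripts of 3 maize (Zea mays) DNA replication genes were followed in whole kernels: MCM7 (GRMZM2G065205), MCM6 (GRMZM2G021069) and the sliding clamp gene pcna2 (GRMZM2G108712). They were chosen by gene ID out of 39625 IDs with a read count, with earlier results of these data known. All 3 were among the 19519 genes abundant enough to be tested. Kernels labelled as the zmknl1 mutant were set against wild type (WT) kernels, both collected 14 days after pollination from field-grown plants. The 2 libraries of a genotype came from different ears and count as biological replicates in the labels. The mutant is named after KNL1, on which the outer kinetochore assembles so that chromosomes can attach to the spindle. The allele and the inbred background are not given in the sources used here, and no reference name tied an ID to Knl1, so the targeted gene was not analysed here.

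Before a cell copies its genome, proteins bound at replication origins load a ring of MCM subunits, MCM2 to MCM7, around the DNA. Once activated by CDC45 and the GINS complex, that ring is the helicase that unwinds the parental strands. PCNA forms a second ring, a sliding clamp that a loader closes around DNA and that holds the polymerases and the enzymes of lagging-strand synthesis in place. In the maize endosperm cells first divide and then endoreduplicate, copying the genome again without dividing, and the same machinery serves both cycles. A whole kernel also holds the embryo and maternal tissue, and in such a bulk sample fewer cells of a type and less RNA per cell cannot be told apart.

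The libraries held 19704758 and 22725030 gene counts in zmknl1 and 20640600 and 16595289 in WT, in the order replicate 1 and replicate 2. WT replicate 2 stood apart: its 10 most abundant genes took 25.3% of its gene counts, against 6.74 to 7.77% in the other libraries, and 23.9% of its reads aligned to several places, against 10.9 to 13.5%. Fold changes are therefore also given without it. Levels are in CPM, read counts brought to a common library size, here scaled with TMM, a method that sets aside genes with extreme ratios. With 2 libraries against 2, an exact permutation test of a single gene cannot give a two-sided p under 0.333, so tests rest on models fitted across all genes.

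The transcript of MCM7, a helicase subunit, was about 4 times as abundant in zmknl1 kernels as in WT kernels. Counts of MCM7 were 903 and 1111 in the zmknl1 libraries, against 273 and 98 in the WT libraries. On the CPM scale these were 39.6 and 44.4 in zmknl1, against 12.0 and 8.36 in WT. Both zmknl1 libraries lay far above both WT libraries, and the lowest zmknl1 value was 3.3 times the highest WT value. Means were 42.0 ± 3.41 CPM in zmknl1 and 10.2 ± 2.57 CPM in WT (SD, n = 2 each), a ratio of 4.12. Counting error was small beside this gap: exact 95% Poisson intervals ran from 37.0 to 42.2 CPM in zmknl1 replicate 1 and from 10.6 to 13.5 CPM in WT replicate 1.

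The edgeR quasi-likelihood test put the log2 fold change of MCM7 at 2.04 ± 0.43 (SE, unadjusted p = 0.00198, adjusted p = 0.229). It was thus not called by edgeR at an adjusted p of 0.05, whereas DESeq2, the tool the submitters name, called it (adjusted p = 0.00442), and limma-voom did not (adjusted p = 0.279). A log2 fold change as large as this or larger was measured for 1029 tested genes (5.27%). Without WT replicate 2 the edgeR log2 fold change of MCM7 was 1.82 ± 0.49 and the adjusted p 0.0653, and without WT replicate 1 they were 2.32 ± 0.52 and 0.0693.

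**Figure D1:**
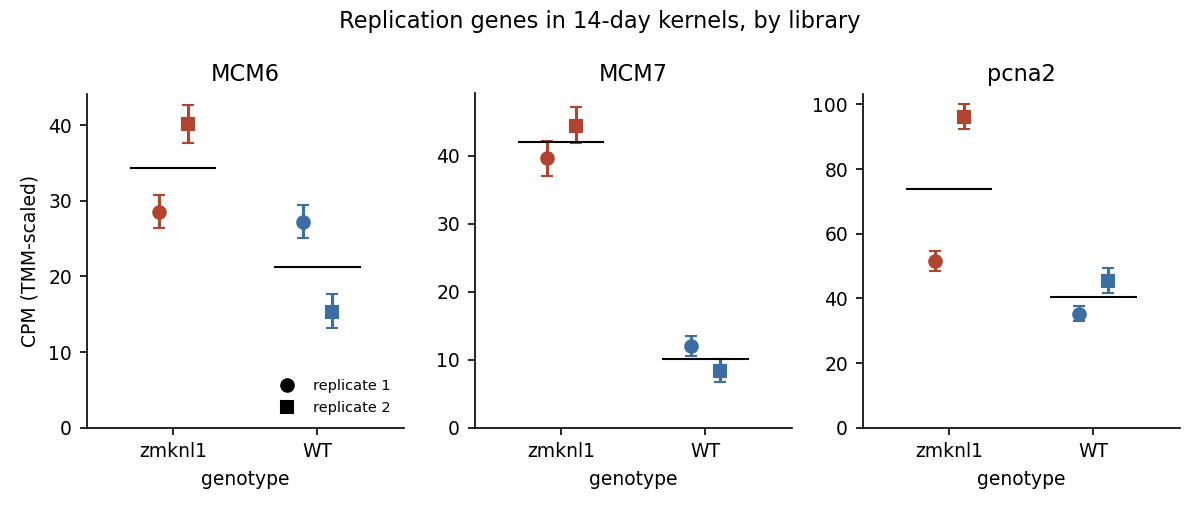
Level of MCM6, MCM7 and pcna2 in CPM (y axis, from 0) in each zmknl1 and WT library; circles are replicate 1, squares replicate 2, bars exact 95% Poisson intervals of the count and horizontal lines group means. MCM7 shows a wide gap between the genotypes (39.6 and 44.4 against 12.0 and 8.36 CPM), while for MCM6 the lower zmknl1 library (28.5 CPM) is close to the higher WT library (27.2 CPM).

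MCM6, another subunit of the same helicase ring, differed less between the genotypes. Its counts were 651 and 1004 in zmknl1, against 619 and 180 in WT. That corresponds to 28.5 and 40.1 CPM in zmknl1, against 27.2 and 15.3 CPM in WT. The groups did not overlap, but the lowest zmknl1 library exceeded the highest WT library only 1.05-fold, and their Poisson intervals overlapped, 26.4 to 30.8 CPM against 25.1 to 29.4 CPM. Mean MCM6 levels were 34.3 ± 8.19 CPM in zmknl1 and 21.3 ± 8.37 CPM in WT (SD, n = 2 each).

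For MCM6, edgeR put the log2 fold change at 0.69 ± 0.46 (SE, adjusted p = 0.698), and DESeq2 gave an adjusted p of 0.752. The size of the difference depended on replicate 2 of each genotype. Without WT replicate 2 the edgeR log2 fold change of MCM6 was 0.34 ± 0.47, and without WT replicate 1 it was 1.15 ± 0.50. Without zmknl1 replicate 2 it was 0.42 ± 0.74.

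The clamp gene pcna2 measured higher in zmknl1, with a spread within that genotype that was wider than in WT. Its counts were 1180 and 2409 in zmknl1, against 803 and 533 in WT. The level was 51.7 and 96.2 CPM in zmknl1, against 35.3 and 45.4 CPM in WT. The groups did not overlap, yet the zmknl1 libraries differed 1.86-fold from each other and the lower of them stood 1.14-fold above the higher WT library. Mean pcna2 levels were 74.0 ± 31.5 CPM in zmknl1 and 40.4 ± 7.19 CPM in WT (SD, n = 2 each).

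For pcna2, edgeR gave a log2 fold change of 0.87 ± 0.44 (SE) and an adjusted p of 0.580, while DESeq2 gave an adjusted p of 0.528. One mutant library carried most of that difference. Without zmknl1 replicate 2 the edgeR log2 fold change of pcna2 was 0.35 ± 0.69, and without zmknl1 replicate 1 it was 1.26 ± 0.68. Without WT replicate 2 it was 1.08 ± 0.51.

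All 3 genes thus had both zmknl1 libraries above both WT libraries, a position shared by 21.9% of all tested genes. The same held with the other scalings tried, RLE size factors and plain library totals. By edgeR 0 of the 3 were called, with 1 at an unadjusted p under 0.05, where 0.0154% of all tested genes were called higher and 10.2% had such a p in either direction. DESeq2 called 1 of the 3 higher, where 1.53% of all tested genes were called higher, and limma-voom called 0 with 1 at an unadjusted p under 0.05, beside 11.2% of all tested genes. The edgeR and DESeq2 values missing the threshold for MCM6 and pcna2 do not show that these genes were equal in both genotypes.

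**Figure D2:**
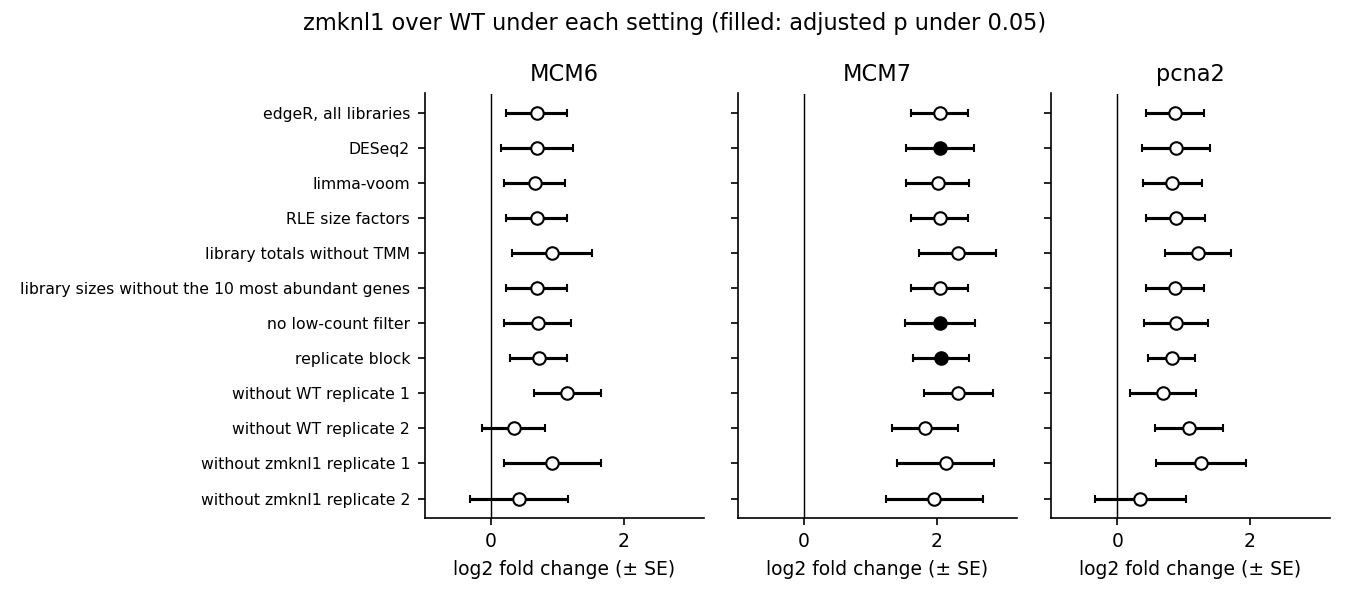
Log2 fold change of zmknl1 over WT (x axis, points ± SE) for each gene under every setting tried (rows); filled points have an adjusted p under 0.05. All estimates are above 0; MCM7 stays between 1.82 and 2.32, while MCM6 ranges from 0.34 to 1.15 and pcna2 from 0.35 to 1.26.

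Ratios of counts within a library need no scaling between libraries. There were 1.39 and 1.11 MCM7 counts per MCM6 count in the zmknl1 libraries, against 0.441 and 0.544 in the WT libraries. The ratio was thus 2.53-fold higher in zmknl1 as a geometric mean, and the genotypes did not overlap. Per pcna2 count there were 0.765 and 0.461 MCM7 counts in zmknl1, against 0.340 and 0.184 in WT, a 2.38-fold difference, again without overlap. Between MCM6 and pcna2 no such shift was seen: MCM6 counts per pcna2 count were 0.552 and 0.417 in zmknl1, against 0.771 and 0.338 in WT, and the mutant values lay between the WT values. These ratios compare libraries, not levels of the genes, since transcript length also sets the counts. They are given without a test and rest on the same counts as the fold changes above. The permutation limit of 0.333 for 2 libraries against 2 holds for them as well.

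On the TMM scale the genes ranked the libraries alike within zmknl1 but differently within WT. In zmknl1 all 3 were higher in replicate 2. In WT, MCM6 and MCM7 were higher in replicate 1, by 1.77-fold and 1.44-fold, while pcna2 was higher in replicate 2, by 1.29-fold. The WT order of pcna2 depended on the scaling. With plain library totals it was 38.9 in WT replicate 1 and 32.1 in WT replicate 2, the same order as MCM6 and MCM7.

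**Figure D3:**
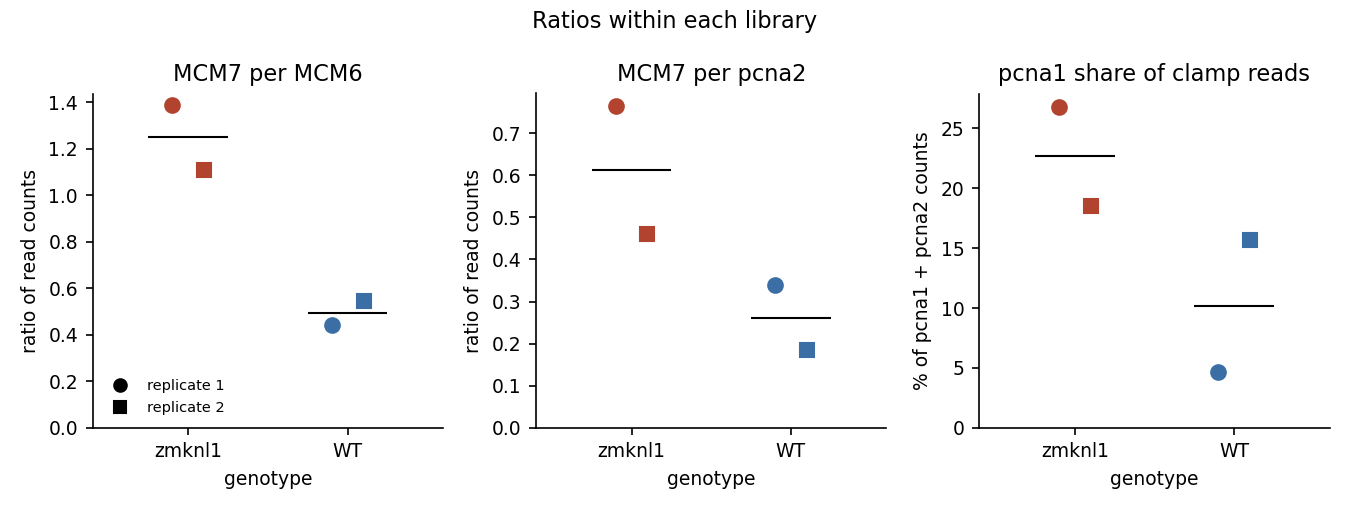
Ratios within each library: MCM7 counts per MCM6 count, MCM7 counts per pcna2 count, and the share of pcna1 among pcna1 and pcna2 counts (y axes, from 0), for zmknl1 and WT; circles are replicate 1, squares replicate 2, lines group means. The MCM7 to MCM6 ratio is above 1 in both zmknl1 libraries (1.39 and 1.11) and 0.441 and 0.544 in WT.

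The other clamp gene with a name in the reference, pcna1 (GRMZM2G030523), measured 18.9 and 21.8 CPM in zmknl1, against 1.71 and 8.44 CPM in WT. The genotypes did not overlap, and the WT libraries differed strongly from each other. The edgeR log2 fold change of pcna1 was 2.02 ± 0.77 (SE, adjusted p = 0.426), and the DESeq2 adjusted p was 0.141. Without WT replicate 2 it was 3.58 and passed in edgeR (adjusted p = 0.0180), and without WT replicate 1 it was 1.26 (adjusted p = 0.417).

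The share of pcna1 among the reads of both clamp genes was 26.8% (exact Clopper-Pearson 95% interval 24.6 to 29.0) and 18.5% (17.1 to 19.9) in the zmknl1 libraries. In the WT libraries it was 4.63% (3.31 to 6.28) and 15.7% (12.9 to 18.7). The summed level of both genes was 94.3 ± 33.5 CPM in zmknl1 and 45.5 ± 12.0 CPM in WT (SD, n = 2 each). Reads that aligned to several places were not counted in genes, so the split between related clamp genes is uncertain.

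Other genes of DNA replication were taken from lists of gene names, and 25 of the 26 matched IDs were tested, leaving the 3 genes above aside. By edgeR 0 of the 25 were called in either direction, with 2 at an unadjusted p under 0.05, where 0.0205% of all tested genes were called and 10.2% had such a p. DESeq2 called 0, with 4 at an unadjusted p under 0.05, where 3.48% of all tested genes were called and 12.0% had such a p. In limma-voom 0 were called, with 3 at an unadjusted p under 0.05, beside 11.2% of all tested genes. Both zmknl1 libraries lay above both WT libraries for 7 of the 25 (28.0%, against 21.9% of all tested genes) and below for 3 (12.0%, against 20.0%), and 15 overlapped. Of the 7 genes of the replication machinery itself, 3 lay above (42.9%) and 1 below (14.3%). Of the other 18, 4 lay above (22.2%) and 2 below (11.1%). By edgeR 2 of these 7 and 0 of these 18 had an unadjusted p under 0.05. The median log2 fold change of the 25 was 0.19, beside 0.01 over all tested genes. The sign of that median was not stable: it was -0.07 without zmknl1 replicate 2 and 0.29 without WT replicate 2. It was also -0.06 over the 10 genes whose names were listed before the reference table was seen.

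The origin recognition genes encode subunits of the complex that marks origins and helps to load MCM rings. Of 4 tested, 1 lay above WT and 1 below in both zmknl1 libraries, beside 21.9% and 20.0% of all tested genes. The level of orc2 (GRMZM2G117238) was 9.02 and 13.7 CPM in zmknl1, against 1.58 and 4.26 CPM in WT (log2 fold change 1.98, edgeR adjusted p = 0.406). The level of orc1 (GRMZM2G455243) was 9.33 and 10.8 CPM in zmknl1, against 19.0 and 18.5 CPM in WT (log2 fold change -0.89, edgeR adjusted p = 0.587). Neither gene passed the test, and both were singled out after their values were seen. Without WT replicate 2 the log2 fold change of orc2 was 2.85 and that of orc1 was -0.90. The list members with the highest mean CPM gave overlapping groups: orc3 (GRMZM2G381822) had 40.1 ± 4.17 CPM in zmknl1 and 42.4 ± 8.94 CPM in WT, and orc4 (GRMZM5G876520) had 38.0 ± 14.8 CPM in zmknl1 and 53.5 ± 31.4 CPM in WT (SD, n = 2 each).

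The GINS subunit gene sld5 (GRMZM2G164325), part of the activated helicase, had 14.1 and 30.0 CPM in zmknl1, against 7.47 and 11.3 CPM in WT, without overlap (log2 fold change 1.24, edgeR adjusted p = 0.516). Its log2 fold change was 1.57 without WT replicate 2 and 0.59 without zmknl1 replicate 2. The flap endonuclease gene fen1 (GRMZM2G121262), whose product trims Okazaki fragments, had 74.4 ± 10.5 CPM in zmknl1 and 68.9 ± 13.1 CPM in WT (SD, n = 2 each), and its groups overlapped. No ID was matched for the replicative polymerases, primase, or replication protein A. The lists also held no matched ID for the other MCM subunits, the clamp loader or CDC45. Those parts of the machinery were therefore not examined. Origin recognition and licensing were covered only by orc1, orc2, orc3 and orc4, GINS only by sld5, and lagging-strand processing only by fen1.

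Of 6 genes of deoxynucleotide supply, 5 had a log2 fold change above 0 (50.4% of all tested genes), 3 of them without overlap (21.9% of all tested genes), and rnrl1 lay on the other side. Ribonucleotide reductase, built from large and small subunits, makes the building blocks of DNA. The large-subunit gene rnrl1 (GRMZM2G304378) had 3.33 and 32.8 CPM in zmknl1, against 40.4 and 79.8 CPM in WT (log2 fold change -1.73, edgeR adjusted p = 0.615). Without zmknl1 replicate 2 its log2 fold change was -4.18, without zmknl1 replicate 1 it was -0.87, and without WT replicate 2 it was -1.15. The other large-subunit gene, rnrl2 (GRMZM2G340527), had 17.7 ± 0.829 CPM in zmknl1 and 8.42 ± 2.26 CPM in WT (SD, n = 2 each), the opposite direction without overlap; it was singled out after its values were seen. The small-subunit gene rnrs1 (GRMZM2G060163) had 28.0 ± 18.7 CPM in zmknl1 and 16.6 ± 5.68 CPM in WT (SD, n = 2 each), with overlapping groups.

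**Figure D4:**
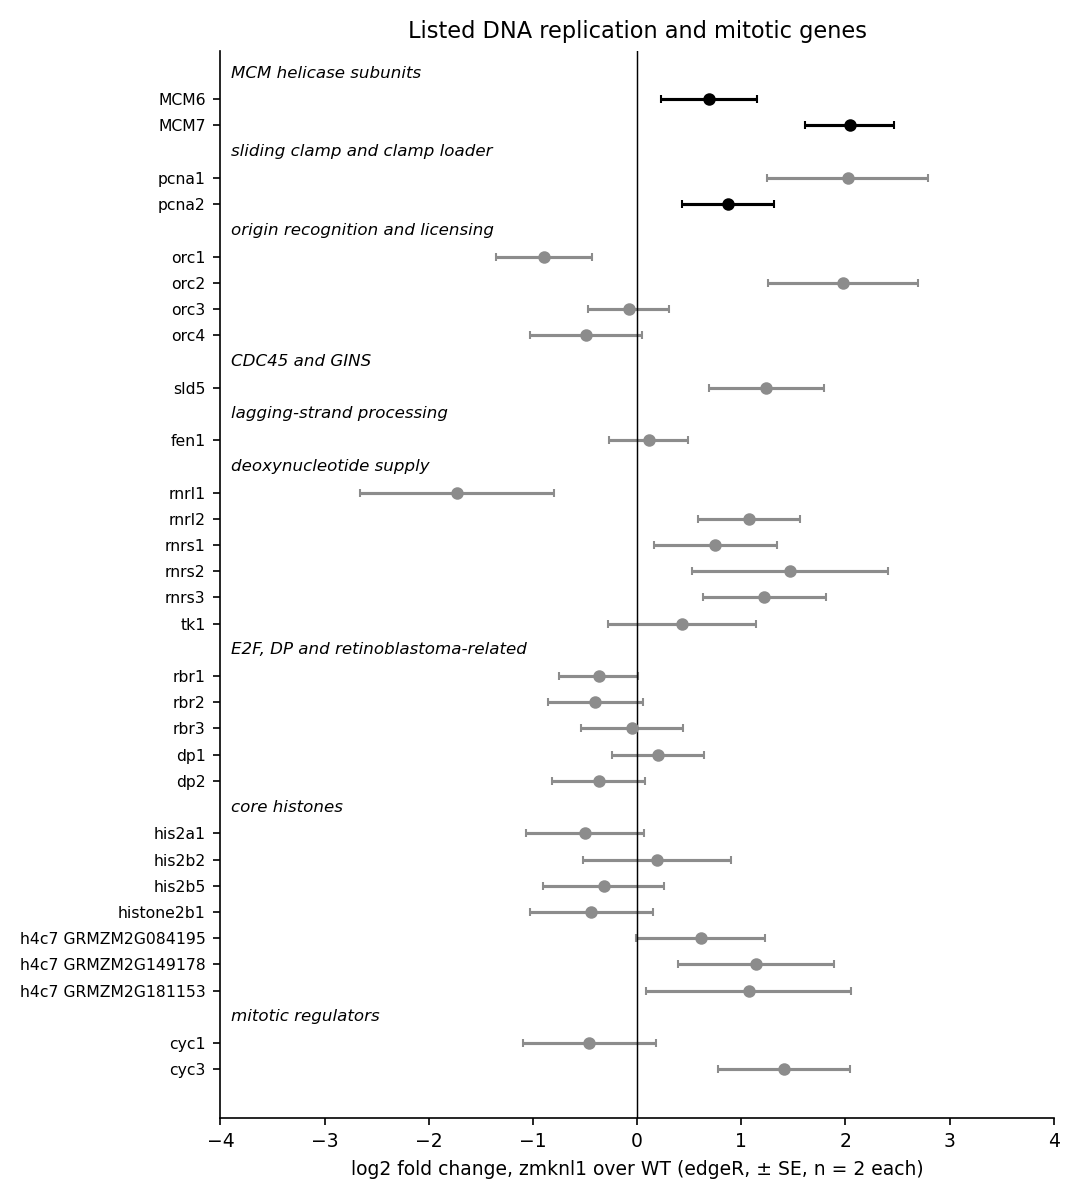
Log2 fold change of zmknl1 over WT (x axis, edgeR, points ± SE, n = 2 each) for the tested genes of each list (rows); black points are MCM6, MCM7 and pcna2, grey points the other genes. Values lie on both sides of 0, from -1.73 for rnrl1 to 2.04 for MCM7, and pcna1 (2.02) and orc2 (1.98) lie nearest to MCM7.

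Some retinoblastoma-related proteins hold back E2F factors, which in plants drive genes of DNA synthesis. No ID was matched for an E2F factor itself. Of 5 genes of this group, 4 overlapped between genotypes, beside 58.1% of all tested genes; rbr1 (GRMZM2G003043), the exception, had 68.9 ± 17.2 CPM in zmknl1 and 89.1 ± 8.40 CPM in WT (SD, n = 2 each; log2 fold change -0.37, edgeR adjusted p = 0.830). The groups of rbr2 (GRMZM2G153150) overlapped, at 28.7 and 18.0 CPM in zmknl1, against 37.9 and 23.9 CPM in WT. The log2 fold change of rbr1 was -0.14 without zmknl1 replicate 2 and -0.45 without WT replicate 2. Among 7 tested core histone IDs, 6 overlapped, beside the same 58.1% of all tested genes. The H2A gene his2a1 (GRMZM2G305046) had 41.2 and 116 CPM in zmknl1, against 79.4 and 143 CPM in WT, and the H2B gene histone2b1 (GRMZM2G071959) 40.0 and 115 CPM in zmknl1, against 71.4 and 139 CPM in WT. Histone genes are near-identical copies, so their single values are uncertain. Of 2 cyclin genes listed for mitosis, cyc3 (GRMZM2G073671) had 13.9 and 42.7 CPM in zmknl1, against 7.91 and 13.4 CPM in WT (log2 fold change 1.41, edgeR adjusted p = 0.517). The log2 fold change of cyc3 was 1.85 without WT replicate 2 and 0.38 without zmknl1 replicate 2. The groups of cyc1 (GRMZM2G034647) overlapped, with 6.79 and 17.1 CPM in zmknl1, against 10.5 and 22.6 CPM in WT.

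The level of each gene was also matched, over the 4 libraries, to those of 1517 other genes with a name and a mean of at least 5 CPM. Likeness was the root mean square distance of centred log2(CPM + 1) values, a description over 4 points. Nearest to MCM7 were PK (GRMZM2G003883) at a distance of 0.112, zag2 (GRMZM2G160687), a MADS-box gene, at 0.195, and the protein disulfide isomerase gene pdi6 (GRMZM2G128171) at 0.282. Nearest to MCM6 were kin2 (GRMZM2G136838) at 0.156, the potassium channel gene kch4 (GRMZM2G093313) at 0.158, and cap1 (GRMZM2G056014) at 0.164. Nearest to pcna2 were F12M16.11 (GRMZM5G819204) at 0.0770, idh2 (GRMZM5G829778) at 0.0845, and ccoaomt1 (GRMZM2G127948) at 0.0882. MCM6 and pcna2 stood 0.432 apart, MCM6 and MCM7 0.650, and MCM7 and pcna2 0.698. By distance to MCM7, MCM6 held rank 91 and pcna2 rank 117 of 1517, and by distance to MCM6, pcna2 held rank 163 and MCM7 rank 663.

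Markers of kernel compartments differed between the genotypes, and their part in these results was not tested. Over all tested genes, 21.9% lay above WT in both zmknl1 libraries and 20.0% below. Summed over the 6 matched transfer layer genes, the level was 153 and 116 CPM in zmknl1, against 18.0 and 38.0 CPM in WT. Of these genes 5 were higher in both zmknl1 libraries, with betl3 and meg1 at 0 counts in WT replicate 1. The gene betl1 was at 0 counts throughout. For 7 embryo genes the sum was 272 and 172 CPM in zmknl1, against 2960 and 716 CPM in WT. The gene ole1 alone gave 142 and 60.1 CPM in zmknl1, against 2160 and 449 CPM in WT. Of the embryo genes 5 were lower in both zmknl1 libraries. Counts were 0 for glb2 in zmknl1, for kn1 in zmknl1 replicate 2 and for wus1 throughout. For 5 aleurone genes it was 227 and 196 CPM in zmknl1, against 397 and 264 CPM in WT, with 4 lower and none at 0. For 8 starchy endosperm IDs, which mark the bulk of a filling kernel, it was 10400 and 15300 CPM in zmknl1, against 25800 and 49500 CPM in WT. Of these IDs 6 were lower and none was at 0. Both GRMZM2G146267 and GRMZM2G146283 were matched to the name pbf1. The gene sh1 alone gave 3230 and 7380 CPM in zmknl1, against 12600 and 30100 CPM in WT. The 4 IDs of the embryo-surrounding region summed to 3.90 and 7.67 CPM in zmknl1, against 0.264 and 14.2 CPM in WT, and overlapped. Of these IDs 3 were at 0 counts in WT replicate 1 and 1 in zmknl1 replicate 1.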

How the data were processed

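The deposited tables hold raw read counts per gene ID, 1 per library. The submitters' processing notes name Trimmomatic 0.36 for trimming, HISAT2 2.0.1 for alignment to B73 RefGen_v3, HTSeq for counting and DESeq2 for testing by the authors. The counting mode and strand setting are not given in the sources used here. In the reference table, which is of another assembly, 0 other genes overlapped MCM6, MCM7, pcna2 or pcna1. Overlaps among the gene models used for counting were not checked. The last 5 lines of each table, reads not assigned to a gene ID, including those aligned to several places (35.8 to 47.8% of lines summed), were left out. No library was a copy of another: chi-square per degree of freedom was 83.6 between zmknl1 and 403 between WT replicates.

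Genes passing filterByExpr were tested in R 4.3.3 with edgeR 4.0.16 (TMM, quasi-likelihood F-test, two-sided, no covariate, Benjamini-Hochberg adjustment over 19519 genes, threshold 0.05). DESeq2 1.42.0 and limma 3.58.1 (voom) were alternatives, besides other scalings, no low-count filter, a replicate block and each library left out. CPM used TMM-scaled sizes of the tested genes. The SE of an edgeR log2 fold change is its size over the root of F. Intervals cover counting error only.

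Names came from a RefSeq table of another assembly, Zm-B73-REFERENCE-NAM-5.0, in which 19060 IDs (48.1%) were found; its coordinates served only to look for overlapping genes and are not printed. Of 11 gene lists 9 had a matched ID; names for nucleotide supply, DP factors and histones were added after that table was seen. In each list the text names up to 3 genes called by edgeR or DESeq2, otherwise the 2 most abundant. Outside this rule it also names orc1, orc2 and rnrl2, singled out after their values were seen. For likeness it names the 3 nearest named genes. The genes and lists were chosen with earlier results of these data known.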

Additional observations from a re-analysis of the deposited data

How the results depend on the processing

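The log2 fold changes of MCM6, MCM7 and pcna2 were above 0 in every setting run. MCM7 crossed the threshold in DESeq2 (log2 fold change 2.04, adjusted p = 0.00442), in edgeR without a low-count filter (2.05, adjusted p = 0.00819) and in edgeR with the replicate block (2.06, adjusted p = 0.0130); in the other settings its adjusted p ran from 0.0653 to 0.727. MCM6 and pcna2 crossed it in no setting (adjusted p from 0.423 and 0.255 upward). With library totals in place of TMM, which moved the median log2 fold change of all genes by 0.33, the values were 0.92 for MCM6, 2.31 for MCM7 and 1.22 for pcna2.

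The number of genes called was 4 in edgeR, 679 in DESeq2, 0 in limma-voom (2183 at an unadjusted p under 0.05), 0 with library totals (2096), 0 with library sizes without the 10 most abundant genes (2015), 715 without a low-count filter and 642 with the replicate block. Leaving out a library gave 19 to 805, the highest without WT replicate 2 (without WT replicate 1 it was 166; zmknl1 replicates 1 and 2, left out in turn, gave 19 and 35). Among the other listed genes, pcna1 and rnrl1 were called without a low-count filter (edgeR adjusted p = 0.0494 and 0.0266), where 715 of 27309 tested genes were called. Both were also called with the block (edgeR adjusted p = 0.0358 and 0.0174), where 642 of 19519 tested genes were called. The cause was not tested. A fit with 1 library in a genotype assumes that it varies like the other genotype. Replicates share only a number: the block rests on no label, and the deviations of equally numbered libraries had a correlation across genes of 0.365.

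The median log2 fold change of the listed replication genes, 0.19, was -0.06 over the names listed before the reference table was seen. Leaving out a library moved it between -0.07 and 0.43. The log2 MCM7 to MCM6 ratio difference, 1.34, ran from 1.18 to 1.50 with a library left out, and the MCM7 to pcna2 one, 1.25, from 0.81 to 1.69.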
